A study of Mus musculus with 10 samples.

Results

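The genes described here are 38 mouse genes of protein folding in the endoplasmic reticulum (ER) and of the unfolded protein response (UPR), chosen by name and found by their Ensembl gene ID in the table of normalised expression. All 38 were among the 29527 genes of the table, and all 38 passed the filter on low values, which kept the 17268 genes whose mean, taken back to the linear scale, reached 10. RNA had been sequenced in bulk from the dissected intermediate lobe (IL) of the pituitary of mice aged 2 to 3 months. The samples were 4 wild type (WT), 3 p27-/-, which lack both copies of Cdkn1b, the gene of the cell cycle inhibitor P27, and 3 p27-/-;Sox2+/-, called compound mutants here, which also lack 1 copy of the stem cell factor gene Sox2. The study used these genotypes to ask what the dose of Sox2 changes in an IL that forms tumors later in life when P27 is absent. The p27 allele is a germline deletion on a mixed genetic background, so that P27 is absent from every cell type of the dissected tissue and not only from the melanotrophs. Values are the deposited log2 expression values, differences are differences of these values, and a gene is said to be called when its adjusted p was under 0.05 in limma, fitted to all 10 samples and adjusted by Benjamini-Hochberg over the 17268 genes. The labels do not say which animals a library came from, while the list of animals in the study's supplement holds as many mice as libraries in each genotype, of both sexes. The p-values measure the spread between these libraries.

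Most cells of the IL are melanotrophs, which make large amounts of the prohormone pro-opiomelanocortin (POMC) and pass it through the ER. Chaperones such as BiP, the product of Hspa5, hold new proteins while they fold, disulfide isomerases join their cysteines, and proteins that fail to fold are sent back to the cytosol and degraded. Unfolded protein in the ER is sensed by IRE1 (Ern1), PERK (Eif2ak3) and ATF6 (Atf6). IRE1 splices the mRNA of Xbp1, PERK raises translation of Atf4, and ATF6 is cut to release its active part, and the 3 resulting factors switch on chaperone, degradation and amino acid genes. A table of expression per gene measures mRNA level and holds neither the splicing of Xbp1 nor the cleavage of ATF6 nor the translation of Atf4.

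The sites through which the UPR is known to act were searched by their exact letters, on both strands, in the RefSeq promoter windows of GRCm38.p6 from 250 bases before to 50 after the gene start. Windows were found for 32 of the 38 genes, and not for Atf6, Manf, Hyou1, Derl1, Sec61a1 and Ssr2. The ER stress response element (ERSE, CCAAT and CCACG with 9 bases between them) was present in 9 of the 32 genes (28.1%) and in 0.137% of 27025 genes with a window. The related ERSE-II (ATTGG and CCACG with 1 base between them) was present in 2 of the 32 (6.25%, against 0.0444% of all genes), the core of the UPR element (UPRE, TGACGTG) in 1 (3.12% against 2.22%) and the amino acid response element (AARE, TTNCATCA) in 2 (6.25% against 4.51%). These shares describe the letters of the windows and were not tested, and a match is not a measured binding site. The genes were chosen as genes of ER folding and the UPR, and the motifs as its known sites. A higher share among them is therefore no independent result, and the 27025 genes include the 32. The sites below are shown because they lie next to the chaperone, isomerase and degradation genes whose values follow. Each is printed 5′ to 3′ in the direction of its motif with 5 bases on either side, and capitals mark the fixed letters of the motif. 
Hspa5 ERSE, chr2:34772020-34772048, plus strand: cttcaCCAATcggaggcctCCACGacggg
Hsp90b1 ERSE, chr10:86705633-86705661, minus strand: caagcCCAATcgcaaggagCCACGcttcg
Calr ERSE, chr8:84847070-84847098, plus strand: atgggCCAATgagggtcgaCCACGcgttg
Canx ERSE, chr11:50325795-50325823, minus strand: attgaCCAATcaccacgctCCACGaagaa
Pdia6 ERSE, chr12:17266486-17266514, plus strand: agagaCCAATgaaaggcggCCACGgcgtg
Dnajc3 ERSE, chr14:118937822-118937850, plus strand: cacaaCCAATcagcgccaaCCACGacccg
Derl3 ERSE, chr10:75893237-75893265, minus strand: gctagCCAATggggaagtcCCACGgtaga
Herpud1 ERSE-II, chr8:94386372-94386392, plus strand: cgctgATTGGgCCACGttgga
Herpud1 AARE, chr8:94386312-94386329, plus strand: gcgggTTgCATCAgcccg
Hspa5 UPRE core, chr2:34771928-34771944, plus strand: agcaaTGACGTGagttg

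The Hspa5 ERSE lies 46 to 65 bases before the gene start and its UPRE core 150 to 157 bases before it. Hsp90b1 held a further ERSE, 88 to 107 bases before the start on the opposite strand, and Creld2 and Syvn1 held 1 ERSE each. The ERSE-II of Dnajb11 and the AARE of Trib3 lie past the gene start. The windows of Xbp1, Atf4 and Ddit3 held none of the 4 motifs in these exact letters.

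Before the comparisons, 3 facts of the libraries bear on the values. WT replicate 4 had the lowest WT value in 28 of the 38 genes, while it was the lowest in 20.8% of all genes tested, and WT replicate 1 had the highest in 21. Among compound mutants, replicate 1 was the lowest in 24 of 38 (35.2% of all genes) and replicate 3 the highest in 26 (37.5%). Log2 values of Xist, which is expressed from the inactive X chromosome of females, were 9.29 and 9.22 in WT replicates 3 and 4, 8.78 in p27-/- replicate 2 and 8.89 in compound replicate 1, and 14.3 to 15.0 in the other 6 samples. In WT, both samples with high Xist lay above both samples with low Xist in 18 of the 38 genes (17.7% of all genes) and below them in 0 (17.5%), and in the compound mutant both lay above the sample with low Xist in 24 of 38 (35.2%) and below it in 2 (35.7%). In p27-/- the genes showed no such split, with both above in 12 (31.8%) and both below in 10 (32.1%). The label of p27-/- was checked on Cdkn1b (ENSMUSG00000003031), which was lower by 0.43 in p27-/- (adjusted p = 0.047, limma) and by 0.72 in the compound mutant (adjusted p = 0.00854). A fall of the deleted gene by 26.0% in p27-/- leaves much of its signal, with p27-/- values of 8.04 to 8.27 under WT values of 8.39 to 8.85. The deposited table does not show which part of the gene these reads come from. Its call in p27-/- was kept in 3 of 10 fits that left out a sample and in 3 of 16 other settings, and the difference was -0.25 with melanotroph markers as a covariate. Sox2 was lower by 0.46 in the compound mutant than in WT, which did not pass the threshold (adjusted p = 0.0811). Pomc, the defining gene of the tissue, ranged from 18.003 to 19.005.

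In WT tissue the genes covered a wide range of levels. Compared between genes as log2 expression per kilobase of the longest transcript (GENCODE vM1), the chaperone gene Hsp90b1 stood highest at 12.71 ± 0.12 (SD, n = 4), in the 99.8th percentile of genes with a length, and Hspa5 followed at 12.29 ± 0.14. Every WT sample kept Hsp90b1 above Hspa5 and Hspa5 above Pdia3 on this scale. Below them came Pdia3 (10.96 ± 0.22), Ssr3 (10.73 ± 0.09), Canx (10.69 ± 0.07) and Calr (10.36 ± 0.27). The WT ranges of neighbours among these genes overlapped. The sensors were much lower per kilobase, with Atf6 at 7.37 ± 0.14, Ern1 at 6.36 ± 0.28 and Eif2ak3 at 5.71 ± 0.13, and every WT sample had Ern1 above Eif2ak3. Derl3 (4.20 ± 0.11) and Trib3 (3.13 ± 0.09) were lowest. The median of the 38 genes lay at the 88.7th percentile of genes with a length. Derl3, a degradation gene known from plasma cells, is read here beside the 6 markers of plasma and B cells, of which 0 passed the filter on low values.

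The comparison of p27-/- with WT samples asked which of these genes change when P27 is absent. Xbp1, Atf4 and Ssr2 rose in p27-/- IL, by 34.1%, 24.6% and 48.6%, and 0 of the 38 genes fell in limma's test. The 3 of 38 called is a share of 7.89%, and 7.78% of all genes tested were called in this comparison, 3.16% higher and 4.62% lower. At an unadjusted p under 0.05, 11 of the 38 genes were higher and 1 was lower, where 11.3% of all genes were higher and 12.8% lower. Each genotype's libraries hold the RNA of a whole dissected lobe, in which fewer cells of a type and less RNA per cell cannot be told apart. The p27-/- mean was above the WT mean in 33 of the 38 genes, against 51.6% of all genes, with a median difference of 0.12 where the median of all genes was 0.01. Most of these differences were small, since 30 of the 38 were under 0.25 in size and 26 had a 95% interval that included 0. Without WT replicate 4, the median of the 38 genes was 0.06 and 30 of them were above 0. Under quantile normalization 30 were above 0, with a median of 0.10.

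Xbp1 (ENSMUSG00000020484, chromosome 11 from 5520641 to 5525993 in GRCm38.p6) encodes the factor that IRE1 activates. Its log2 value was 10.19, 10.15, 9.96 and 9.83 in the WT samples, 10.50, 10.46 and 10.41 in p27-/- and 10.16, 10.20 and 10.03 in compound mutants. All 3 p27-/- samples lay above all other samples, and the compound samples lay within the WT range except for 1 that was just above it. The difference of p27-/- from WT was 0.42 (standard error 0.10, 95% interval 0.22 to 0.63, adjusted p = 0.0197, limma). The compound mutant differed from WT by 0.10 (interval -0.11 to 0.30, adjusted p = 0.642) and from p27-/- by -0.33 (interval -0.55 to -0.10, unadjusted p = 0.00691, adjusted p = 0.402, limma).

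Atf4 (ENSMUSG00000042406, chromosome 15 from 80255184 to 80257545) encodes the factor whose translation PERK raises. Its values were 9.52, 9.53, 9.34 and 9.39 in WT, 9.71, 9.74 and 9.83 in p27-/- and 9.51, 9.64 and 9.61 in compound mutants. The p27-/- samples were again above all others, with a difference from WT of 0.32 (standard error 0.08, interval 0.14 to 0.50, adjusted p = 0.036, limma). In the compound mutant the difference from WT was 0.15 (interval -0.03 to 0.33, adjusted p = 0.388), and that from p27-/- was -0.17 (interval -0.36 to 0.02, adjusted p = 0.835). Of the 3 calls in p27-/-, that of Atf4 was lost most often, being kept in 4 of 10 fits that left out a sample and in 5 of 16 other settings, against 6 and 10 for Xbp1.

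Ssr2 (ENSMUSG00000041355, chromosome 3 from 88579608 to 88588420) encodes a subunit of the translocon-associated protein complex, which lies beside the channel through which secreted proteins enter the ER and assists their entry. It was at 8.84, 8.81, 8.39 and 8.40 in WT, 9.29, 9.07 and 9.18 in p27-/- and 8.41, 8.83 and 8.84 in compound mutants. WT and compound samples overlapped and each held values on 2 levels, while the p27-/- samples lay above both. The samples at the lower level, WT replicates 3 and 4 and compound replicate 1, were those with low Xist, and the p27-/- sample with low Xist was the lowest of its genotype. The difference of p27-/- from WT was 0.57 (standard error 0.14, interval 0.27 to 0.87, adjusted p = 0.0267, limma), and with Xist as a covariate it was 0.51 (adjusted p = 0.00645). The compound mutant differed from p27-/- by -0.49 (interval -0.81 to -0.17, unadjusted p = 0.00559, adjusted p = 0.372, limma).

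The 3 calls were lost without some single libraries, and the calls over all genes changed as well. With every sample, 545 of all genes were called higher and 798 lower in limma. Leaving out p27-/- replicate 1, 2 or 3 or WT replicate 4 left 0 of the 38 genes called. Over all genes these fits called 237 higher and 372 lower, 231 and 341, 145 and 258, and 262 and 428. Leaving out WT replicate 3 left Xbp1 alone (312 and 503 over all genes). Leaving out compound replicate 2, which enters the shared estimate of the spread, left Xbp1 and Ssr2 (341 and 590). Leaving out WT replicate 1 brought the count to 7 (725 and 984). Over the 10 fits that each left out 1 sample, the difference of Xbp1 stayed between 0.36 and 0.48, with an adjusted p of 0.00806 to 0.0752. Some markers of several cell types were called in p27-/-, where 3.16% of all genes were called higher and 4.62% lower. Of the melanotroph markers 2 of 6, Oacyl and Pcsk2, were called higher in p27-/-, by 0.77 and 0.53. Pomc, Pax7, Tbx19 and Drd2 were not called, with differences of 0.31, 0.23, 0.06 and 0.03. The log2 of the summed list was 18.2 to 19.1 in WT, 18.8 to 19.2 in p27-/- and 18.5 to 18.7 in compound mutants. Pomc is by far the highest of the 6 and sets most of that sum. The 6 genes were also centred, each on its own mean over all samples. The mean of the centred values was -0.28 to 0.11 in WT, 0.02 to 0.30 in p27-/- and -0.11 to 0.02 in compound mutants. Of the fibroblast and mural markers 2 of 7, Lum and Pdgfra, were called lower in p27-/-, and the sum was 11.7 to 12.2 in WT, 11.0 to 11.9 in p27-/- and 11.1 to 11.8 in compound mutants. Of the endothelial markers 1 of 6, Kdr, was called lower, with sums of 8.57 to 8.94, 8.15 to 8.52 and 8.27 to 8.71 in the same order. Of the 7 posterior lobe markers 0 were called in p27-/-, with a median difference of -0.52. Their sums were 9.25 to 10.7, 9.46 to 9.71 and 8.91 to 10.3, so that the WT range held that of p27-/-. Of the stem cell markers, which include Sox2 itself, 1 of 5 was called lower in p27-/-, the cadherin gene Cdh1 (-0.58, adjusted p = 0.0126, limma), and the sums of 10.2 to 10.3 in WT did not overlap those of 9.93 to 10.1 in p27-/-, with 9.96 to 10.2 in compound mutants. With the centred mean of any 1 of these 5 lists as a covariate, 0 of the 38 genes was called in limma, and the difference of Xbp1 was 0.33 to 0.39 (adjusted p = 0.137 to 0.682). Calls over all genes fell too, to 153 higher and 129 lower with the melanotroph markers and 90 and 127 with the fibroblast and mural. They were 133 and 269 with the endothelial, 125 and 213 with the posterior lobe and 5 and 4 with the stem cell markers. With the stem cell markers Atf4 differed by 0.18 and Ssr2 by 0.33. Xbp1 and Ssr2 stayed called with the anterior lobe hormone markers as a covariate, whose sum was 13.1 to 17.7 in WT, 12.5 to 16.5 in p27-/- and 13.1 to 14.6 in compound mutants and of which 1 of 6, Fshb, was called lower in p27-/- (-2.04, adjusted p = 0.028, limma), and with the macrophage and microglia markers, at 8.86 to 9.60, 8.97 to 9.10 and 8.68 to 9.02. Prl and Gh set most of the anterior lobe sum. The part of the marker lists in the result was not tested.

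**Figure D1:**
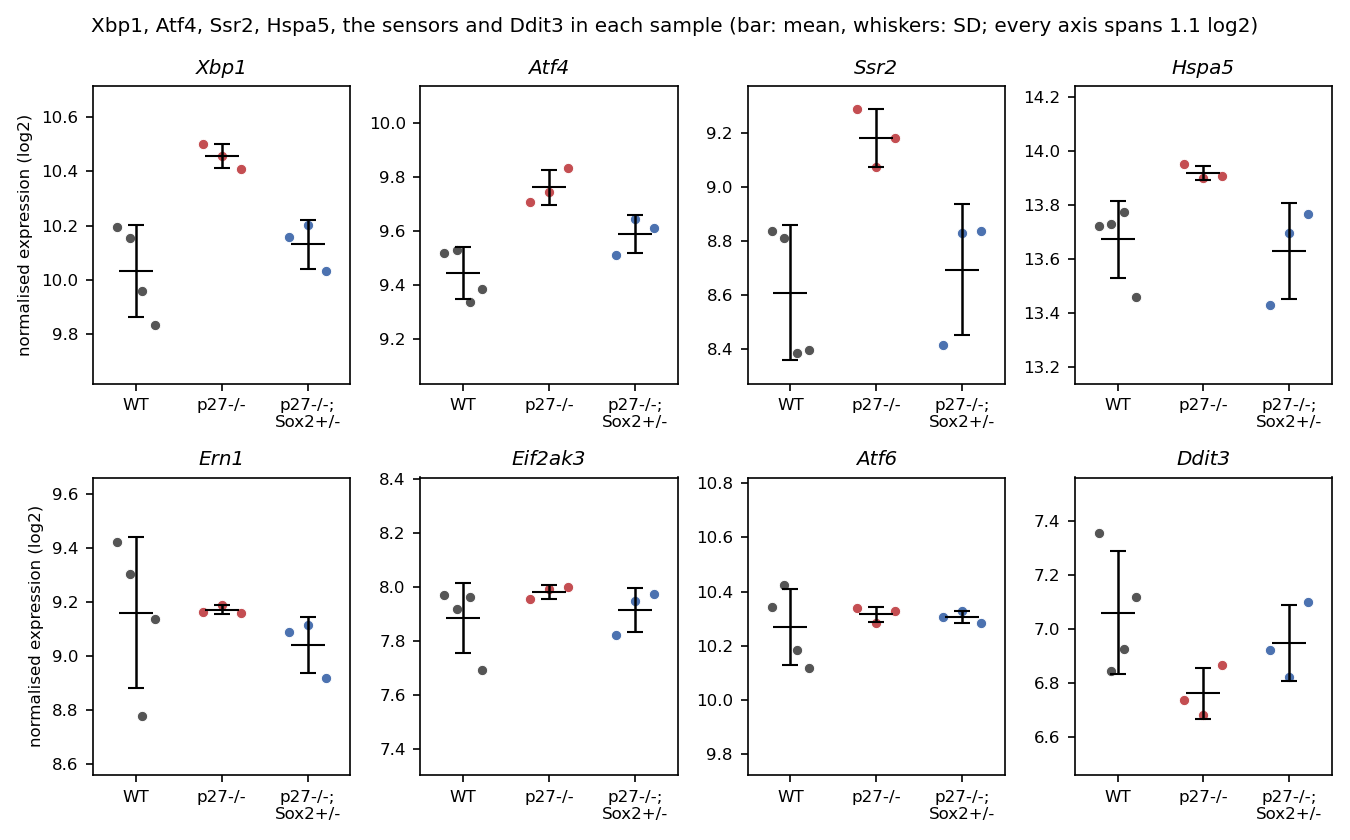
Normalised expression (log2) of Xbp1, Atf4, Ssr2, Hspa5, Ern1, Eif2ak3, Atf6 and Ddit3 in each of the 4 WT, 3 p27-/- and 3 p27-/-;Sox2+/- samples, 1 point per sample, with the genotype mean and SD as bar and whiskers. In the upper row the 3 p27-/- points lie above all others, and in the lower row the genotypes overlap.

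The 3 sensor genes were not called in any comparison in limma, also at an unadjusted p under 0.05. Ern1 (ENSMUSG00000020715), which encodes IRE1, was at 9.42, 9.30, 8.78 and 9.14 in WT, 9.16, 9.19 and 9.16 in p27-/- and 9.09, 9.11 and 8.92 in compound mutants. The spread within WT was far larger than that within p27-/-, and the p27-/- mean differed from the WT mean by 0.01 (interval -0.26 to 0.28, adjusted p = 0.972, limma). Eif2ak3 (ENSMUSG00000031668), which encodes PERK, had 7.97, 7.92, 7.96 and 7.69 in WT, 7.953, 7.991 and 7.9999 in p27-/- and 7.82, 7.95 and 7.97 in compound mutants. Its difference in p27-/- was 0.10 (interval -0.11 to 0.31, adjusted p = 0.59), and WT replicate 4 and compound replicate 1 lay below the other samples. Atf6 (ENSMUSG00000026663) ranged from 10.12 to 10.42 in WT, from 10.28 to 10.34 in p27-/- and from 10.29 to 10.33 in compound mutants, so that both mutants lay inside the WT range. Its differences from WT were 0.05 in p27-/- (interval -0.14 to 0.23) and 0.04 in the compound mutant (interval -0.15 to 0.22).

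Downstream of PERK and ATF4, Ddit3 (ENSMUSG00000025408), which encodes the factor CHOP of prolonged ER stress, had values of 7.35, 6.84, 6.92 and 7.12 in WT, 6.74, 6.68 and 6.87 in p27-/- and 6.92, 6.82 and 7.10 in compound mutants. It was the gene with the most negative difference of the 38 in p27-/-, -0.30 (interval -0.59 to -0.01, unadjusted p = 0.0424, adjusted p = 0.19, limma), and was not called. Trib3, a pseudokinase gene that ATF4 and CHOP are known to induce, differed by -0.02 (interval -0.29 to 0.25). Creb3l2, which encodes an ER-bound factor related to ATF6, differed by 0.30 (interval 0.05 to 0.56, adjusted p = 0.137), with p27-/- values of 12.19, 12.41 and 12.73 that overlapped the WT range of 11.99 to 12.22. Of the 8 sensor and factor genes 2 were called higher (3.16% of all genes) and 6 were not called.

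Hspa5 (ENSMUSG00000026864, chromosome 2 from 34772090 to 34776529) was at 13.72, 13.73, 13.78 and 13.46 in WT, 13.95, 13.90 and 13.91 in p27-/- and 13.43, 13.70 and 13.77 in compound mutants. The p27-/- samples lay above all others and close together, but the difference from WT of 0.25 was not called (interval 0.02 to 0.48, unadjusted p = 0.0381, adjusted p = 0.179, limma). In the compound mutant the difference from WT was -0.04 (interval -0.27 to 0.19). Among the 8 chaperone and co-chaperone genes 0 were called in limma (7.78% of all genes). At an unadjusted p under 0.05 there was 1 higher, Hspa5 (11.3% of all genes). Their differences in p27-/- ran from -0.14 for Sdf2l1, which belongs to a complex around BiP, to 0.25, with a median of 0.13. Hsp90b1, which encodes GRP94, differed by 0.18 (interval -0.07 to 0.42), with every p27-/- sample above every WT sample. The co-chaperone genes Dnajb9, Dnajb11 and Dnajc3, whose products work with BiP, differed by 0.07, 0.13 and 0.05. Hyou1, a nucleotide exchange factor of BiP, differed by 0.17, and Manf, a secreted protein of ER stress, by 0.14. The lectin chaperones, which hold glycoproteins by their sugar, differed by 0.30 (Calr, unadjusted p = 0.0321) and 0.24 (Canx, unadjusted p = 0.0177, limma). All 6 genes grouped as disulfide isomerases had positive differences. They ran from 0.05 (Pdia3) and 0.06 (Dnajc10, an ER reductase) through 0.12 (Creld2), 0.22 (P4hb) and 0.23 (Pdia6) to 0.36 (Pdia4), and Pdia4 came closest to the threshold (interval 0.12 to 0.59, adjusted p = 0.0593).

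The genes of ER-associated degradation had small differences. Their median was 0.10 over 9 genes, with 0 called in limma (7.78% of all genes). At an unadjusted p under 0.05 there was 1 higher (11.3% of all genes), Edem3, which encodes a mannosidase-like protein, with 0.19. The range was from -0.12 for Sel1l, the partner of the ubiquitin ligase Syvn1, to 0.19. Syvn1 itself differed by 0.07, and Herpud1, which recruits components to that ligase, by 0.01. The Derlin genes, whose products help to move proteins out of the ER, differed by 0.14 (Derl1), 0.11 (Derl2) and 0.10 (Derl3), and Edem1 and Edem2 by 0.10 and -0.04. In Derl1, Derl2 and Edem3 every p27-/- sample lay above every WT sample. Sel1l was the 1 gene of the 38 with every p27-/- sample below every WT sample. All 5 translocation genes had positive differences, with a median of 0.20. Sec61a1, the pore subunit of the translocon, differed by 0.10 and Ssr3 by 0.09, and the other 3, Sec61b (0.40), Ssr1 (0.20) and Ssr2, had an unadjusted p under 0.05. Over all 38 genes, every p27-/- sample lay above every WT sample in 12, where 10.2% of all genes did so, and below in 1 (10.3%). Under quantile normalization the first count was 6, with 10.4% of all genes. The 11 genes with an ERSE or ERSE-II had differences of 0.01 to 0.30, all 11 above 0, with a median of 0.13, and the 21 with a window but neither motif had a median of 0.10, with 16 above 0. Neither Xbp1 nor Atf4 was among the 11, and 0 of the 11 were called in limma (7.78% of all genes). Of the 11, Hspa5, Calr and Canx were higher at an unadjusted p under 0.05 (11.3% of all genes).

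**Figure D2:**
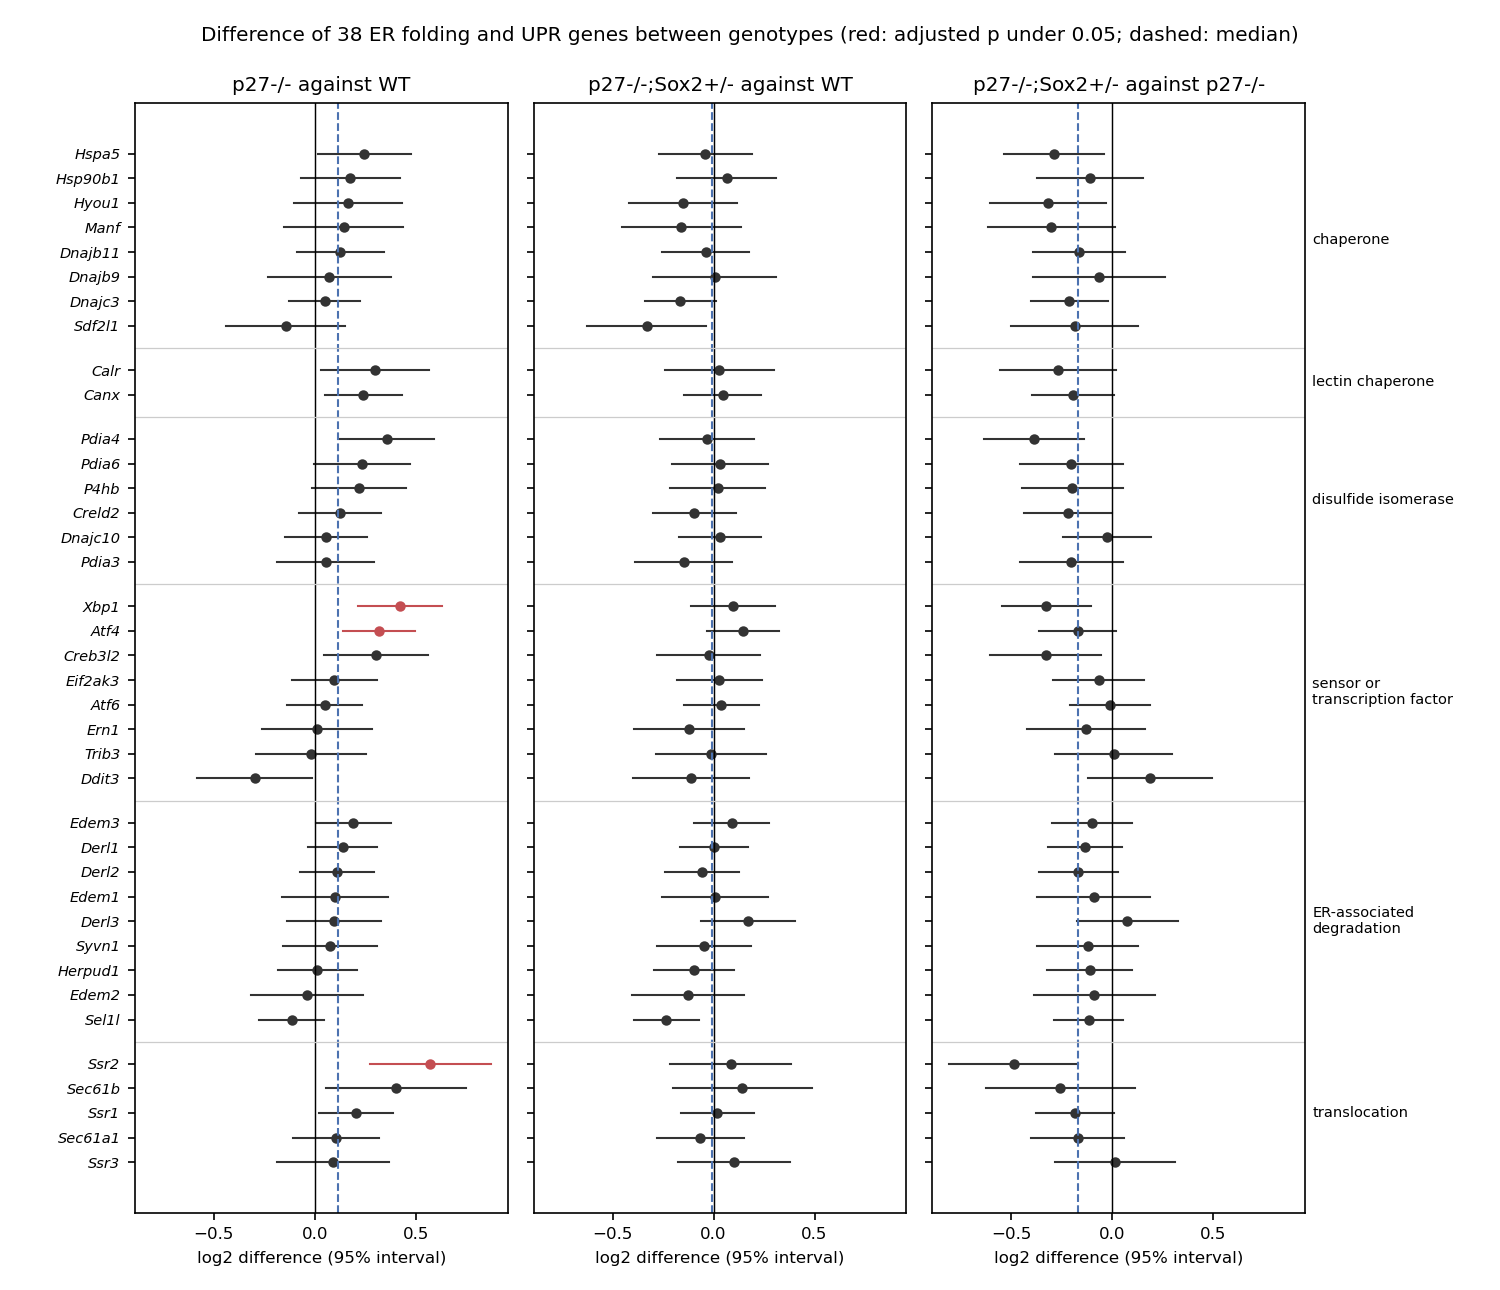
Difference in log2 expression with its 95% interval for each of the 38 genes, grouped by role, in the 3 comparisons of genotypes. Red marks the 3 genes called in p27-/- against WT, and the dashed lines mark the medians of 0.12, -0.01 and -0.17 from left to right.

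Compound mutants were compared with WT to ask what remains different when 1 copy of Sox2 is also absent. None of the 38 genes was called in limma, where 2.71% of all genes were (0.828% higher and 1.88% lower), and 0 were higher and 2 lower at an unadjusted p under 0.05 (7.64% and 10.2% of all genes). The differences fell evenly around 0, with 19 genes above (52.1% of all genes) and 19 below and a median of -0.01. All but 1 of the 38 intervals stayed within 0.5 on either side, and 37 differences were under 0.25 in size. The 2 lower genes were Sel1l, with -0.23 (interval -0.39 to -0.07, unadjusted p = 0.00778, adjusted p = 0.117, limma), and Sdf2l1, with -0.33 (interval -0.62 to -0.04, unadjusted p = 0.0298, adjusted p = 0.216). Sel1l values were 10.35, 10.46, 10.43 and 10.37 in WT, 10.21, 10.34 and 10.31 in p27-/- and 10.18, 10.13 and 10.19 in compound mutants. It was the 1 gene whose compound samples all lay below all WT samples (8.01% of all genes), and its p27-/- samples lay between the other genotypes. No gene had all compound samples above all WT samples (7.02% of all genes). Chaperone genes had a median of -0.10 with 6 of 8 below 0, and translocation genes one of 0.08 with 4 of 5 above 0. Without WT replicate 4 the median of the 38 genes was -0.06 with 12 above 0, and without compound replicate 1 it was 0.02 with 22 above 0. Leaving out compound replicate 1 also brought the genes with all compound samples above all WT samples from 0 to 5, where 12.2% of all genes were so placed.

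The direct comparison of compound mutants with p27-/- asked what the second Sox2 copy changes in IL without P27. Of the 38 genes 34 had a lower mean in the compound mutant, as had 8873 of all 17268 genes. Their median was -0.17 where that of all genes was -0.0044. In 20 of the 38 every compound sample lay below every p27-/- sample, against 7.75% of all genes, and the reverse held for 0 (7.51%). None was called in limma, where 0.145% of all genes were (0.0811% higher and 0.0637% lower), and at an unadjusted p under 0.05 there were 7 lower and 0 higher (3.19% and 3.46% of all genes, 6.65% in either direction). The 7 were Xbp1, Ssr2, Pdia4 (-0.39, interval -0.64 to -0.14), Creb3l2 (-0.33, interval -0.60 to -0.05), Hyou1 (-0.32, interval -0.60 to -0.03), Hspa5 (-0.29, interval -0.53 to -0.04) and Dnajc3 (-0.21, interval -0.40 to -0.02). The smallest adjusted p was 0.347, for Pdia4, whose values were 10.36, 10.32 and 10.29 in p27-/- and 9.83, 9.95 and 10.01 in compound mutants, beside 10.20, 10.09, 9.84 and 9.72 in WT. All 8 chaperone genes, both lectin chaperone genes and all 6 disulfide isomerase genes had negative differences, with medians of -0.20, -0.23 and -0.20. Among the 8 sensor and factor genes 6 were below 0, with a median of -0.10, and the 2 above were Ddit3 (0.19, interval -0.12 to 0.49) and Trib3 (0.01). Degradation genes had a median of -0.11 with 8 of 9 below 0, and translocation genes one of -0.18 with 4 of 5.

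The count of 20 was 21 without compound replicate 1 (13.2% of all genes) and 14 under quantile normalization (7.38%). Without compound replicate 1 the median was -0.13 with 31 of 38 below 0, and without compound replicate 3 it was -0.20 with 36 below 0. The melanotroph markers as a covariate gave a median of -0.13 with 32 below 0. Of the 11 genes with an ERSE or ERSE-II 10 were below 0, with a median of -0.19, and of the 21 with neither 18 were, with a median of -0.13. The p27-/- samples enter this comparison and the comparison of p27-/- with WT, so that a high p27-/- value moves both.

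**Figure D3:**
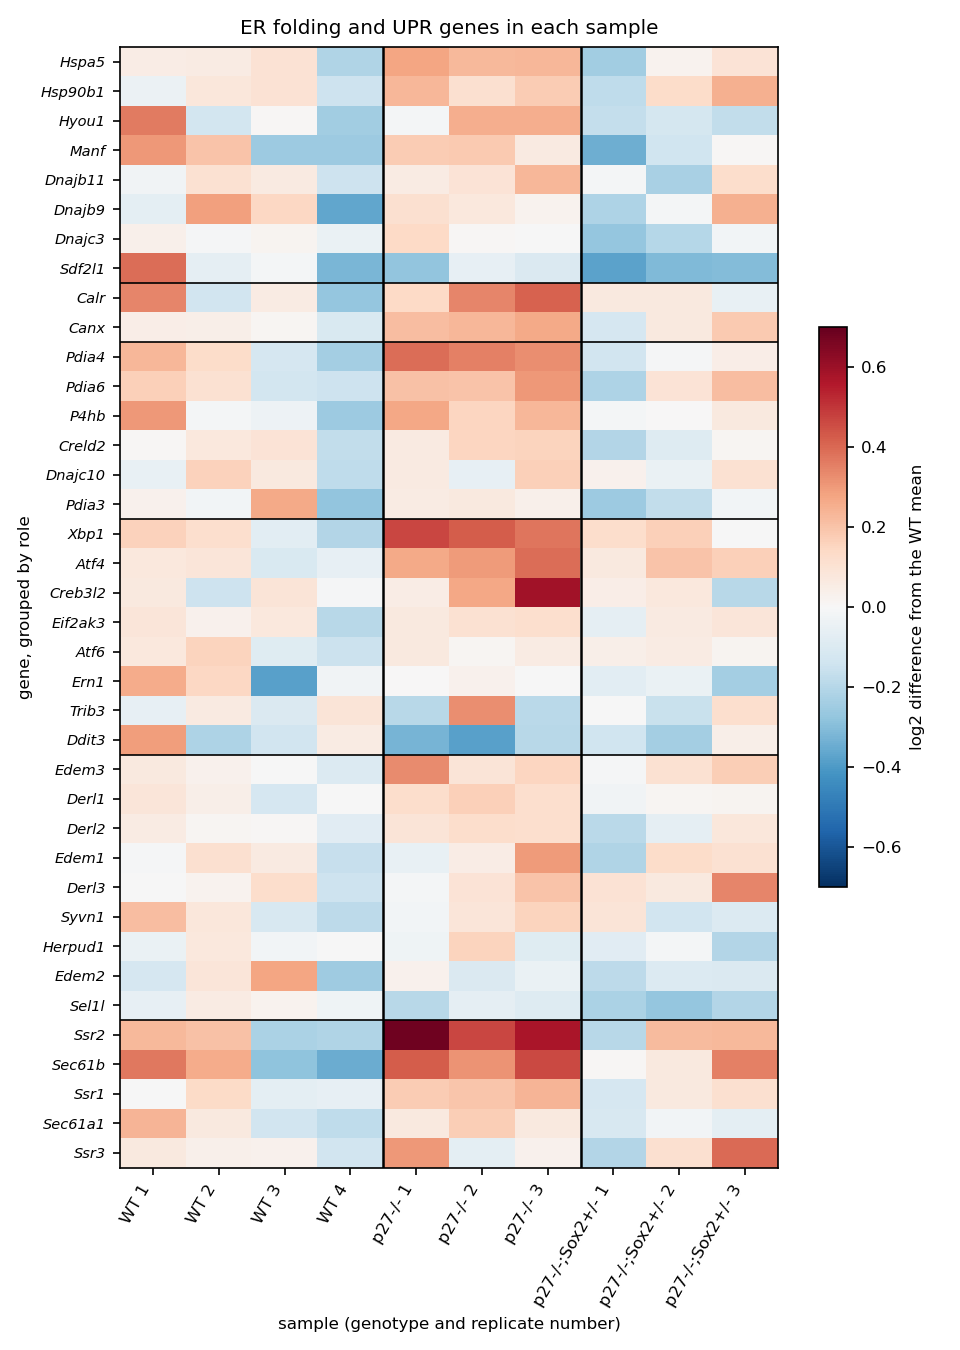
Log2 difference of each gene from its mean in WT, for the 10 samples in columns and the 38 genes in rows, grouped by role. The p27-/- columns are mostly red, and WT replicate 4 and compound replicate 1 are mostly blue.

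Seen across the 3 genotypes, p27-/- had the highest of the 3 means in 31 of the 38 genes (81.6%, against 35.1% of all genes), WT in 5 and the compound mutant in 2. The compound mutant was lowest in 17 (44.7% against 26.9%) and in between in 19. The mean of the 38 genes, as a difference from the WT mean, was 0.11, 0.06, -0.02 and -0.15 in the WT samples, 0.12, 0.13 and 0.16 in p27-/- and -0.10, -0.02 and 0.05 in compound mutants. The p27-/- samples lay above all others but close to WT replicate 1, and the WT samples alone spanned a wider range than the distance between the genotype means. The 3 p27-/- samples were also the most alike, with a median SD per gene of 0.07, against 0.14 in WT and 0.12 in compound mutants. Over all genes these medians were 0.11, 0.16 and 0.12.

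Further genes of the ER were listed to ask whether those outside the 38 behaved alike. They were 131 genes in 7 lists, of which 127 passed the filter. In p27-/- 2 were called higher and 0 lower in limma, a share of 1.57% where 7.78% of all genes were called. Rnf5 (ENSMUSG00000015478), which encodes an ER-bound ubiquitin ligase, had values of 8.17, 8.19, 7.87 and 8.02 in WT, 8.66, 8.82 and 8.35 in p27-/- and 8.33, 8.43 and 8.34 in compound mutants, with a difference from WT of 0.55 in p27-/- (standard error 0.12, adjusted p = 0.0153). Ufm1 (ENSMUSG00000027746), a ubiquitin-like modifier that acts on ribosomes at the ER, had 8.63, 8.93, 8.37 and 8.67 in WT, 9.16, 9.01 and 9.15 in p27-/- and 8.68, 8.75 and 8.91 in compound mutants, and its difference in p27-/- was 0.46 (standard error 0.12, adjusted p = 0.0342). All p27-/- values of both genes lay above the WT values. In compound mutants 1 of the 127 genes was called (2.71% of all genes), lower: Fkbp11 (ENSMUSG00000003355), an ER prolyl isomerase gene, at 7.03, 6.66, 6.53 and 6.57 in WT, 6.52, 6.42 and 6.56 in p27-/- and 6.08, 6.11 and 6.21 in compound mutants. Its difference from WT was -0.56 in compound mutants (standard error 0.13, adjusted p = 0.0368), while its p27-/- values lay above the compound values and overlapped those of WT. Between the mutants 0 of the 127 were called in limma, with 1 higher and 13 lower at an unadjusted p under 0.05 (3.46% and 3.19% of all genes). The call of Rnf5 was lost without p27-/- replicate 1 or 2, that of Ufm1 in 6 and that of Fkbp11 in 7 of the 10 fits that left out a sample.

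The 127 genes had a median difference of 0.09 in p27-/- with 89 above 0 (51.6% of all genes), of -0.0021 in compound mutants and of -0.09 between the mutants with 104 below 0 (8873 of all 17268 genes). In p27-/- the medians were 0.16 for the 19 further translocation and signal peptidase genes, 0.15 for the 12 genes of the oligosaccharyltransferase, which attaches sugar chains to proteins that enter the ER, 0.12 for 22 further degradation genes, 0.11 for 14 genes of disulfide formation, 0.05 for 18 further UPR regulators, 0.05 for 22 ATF4 target genes and 0.02 for 20 genes of glycoprotein folding and prolyl isomerases. Between the mutants all 12 oligosaccharyltransferase genes and all 14 disulfide formation genes had negative differences, with medians of -0.17 and -0.12. The ATF4 target genes, which include amino acid synthesis and transport genes, had 0 of 22 called in p27-/- in limma (7.78% of all genes). At an unadjusted p under 0.05, 2 were higher and 2 lower, near the shares of all genes (11.3% and 12.8%).

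Beside the ER, the heat shock proteins of the cytosol and mitochondria had 2 of 20 called, both lower, in p27-/-, or 10% where 7.78% of all genes were called. They were Hspb1 (-0.81, adjusted p = 0.0111) and Cryab (-0.47, adjusted p = 0.0469, limma), which encode small heat shock proteins. Hspb1 was at 8.34, 8.32, 8.67 and 8.68 in WT, 7.61, 8.07 and 7.39 in p27-/- and 7.996, 7.71 and 7.51 in compound mutants, with every mutant sample below every WT sample. In compound mutants 3 of 20 were called (15% against 2.71% of all genes), Hspb1 (-0.76, adjusted p = 0.0256), Cryab (-0.67, adjusted p = 0.0204) and Hsph1 (-0.55, adjusted p = 0.0157, limma), all lower. Of the melanotroph cargo and processing genes, Pcsk2, a convertase that cuts POMC into its small hormones, was higher by 0.53 in p27-/- (adjusted p = 0.0352), and Pcsk1, the convertase that makes the first cuts, was lower by 0.45 (adjusted p = 0.0206, limma). In the compound mutant Pcsk1 (-0.42, adjusted p = 0.0498) and Pam, the enzyme that amidates peptide hormones (-0.42, adjusted p = 0.0301, limma), were lower. Several of these calls were lost when a sample was left out. In p27-/- the call of Hspb1 was kept in 9 of 10 such fits, that of Pcsk1 in 9, that of Pcsk2 in 4 and that of Cryab in 2, and Cryab differed by -0.30 without p27-/- replicate 3. In compound mutants Hsph1 was kept in 8, Hspb1, Cryab and Pam in 6 each and Pcsk1 in 1. Pomc itself, at 19.005, 18.3, 18.6 and 18.003 in WT, 18.6, 19.0 and 18.8 in p27-/- and 18.4, 18.4 and 18.5 in compound mutants, was not called in any comparison (smallest adjusted p = 0.454).

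**Figure D4:**
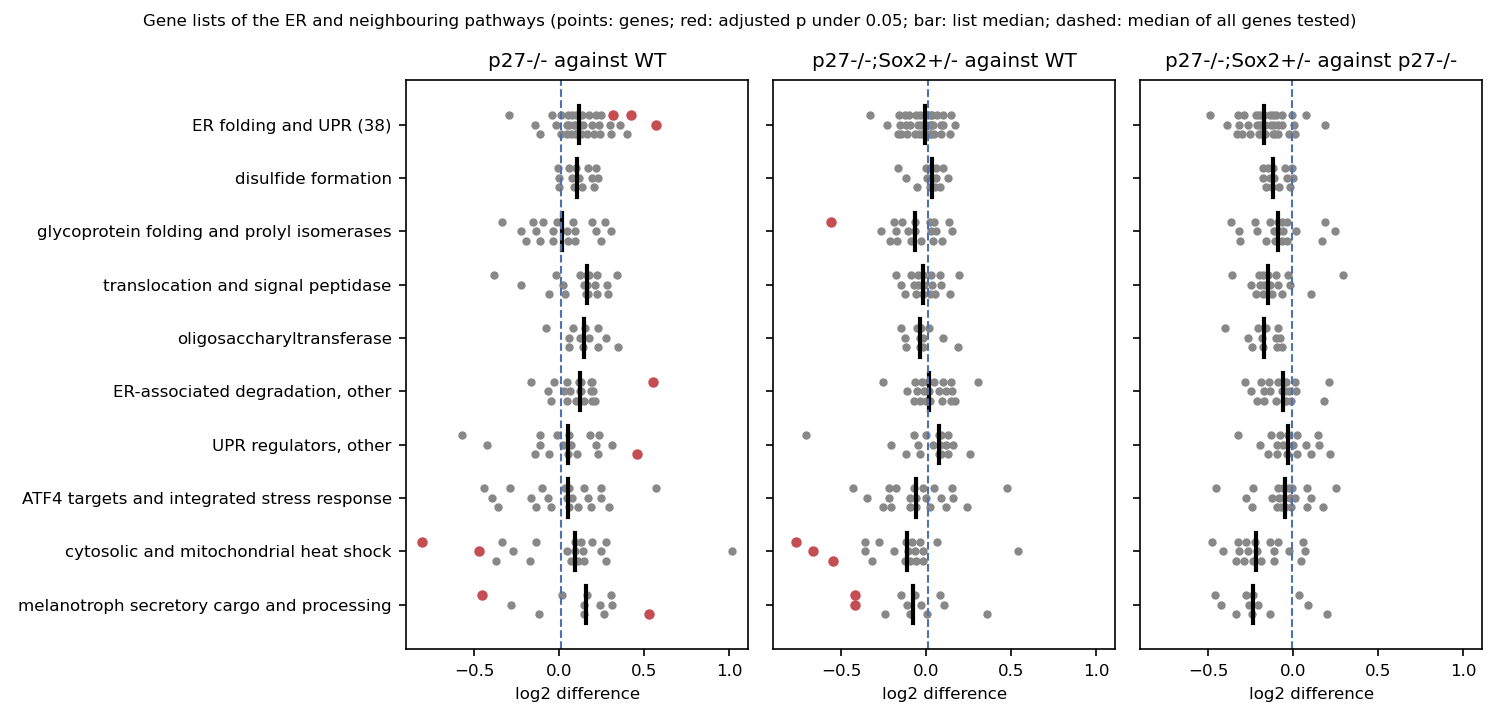
Log2 differences of the genes of each list in the 3 comparisons, 1 point per gene, with red for called genes, a bar for the list's median and a dashed line for the median of all genes tested. The 38 genes have medians of 0.12, -0.01 and -0.17, and the oligosaccharyltransferase list medians of 0.15, -0.03 and -0.17.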

How the data were processed

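RNA of dissected IL was sequenced in 10 libraries. The authors aligned the reads with STAR 2.5.2a to Ensembl mouse GRCm38, counted them per gene with RSEM 1.3.30 without strand, normalised the counts with DESeq2 1.18.1 and deposited log2 values. The transformation is not given in the sources used here, and whether it narrows the differences of low genes was not tested. The table holds no counts, the depth of each sample is unknown from it, so the precision is set by the number of samples. Groups follow the labelled genotypes.

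Genes with a mean of at least 10 on the linear scale (3.32 in log2) entered a linear model of all 10 samples in limma 3.58.1 (R 4.3.3), moderated by eBayes with a mean-variance trend, with Benjamini-Hochberg adjustment over 17268 genes. On simulated data for p27-/- against WT, where 200 of 17268 genes were given a known change, limma called 41.5% of those with a log2 change of 0.5, and 90.5% and 100% where it was 1 and 2. In the data themselves 545 genes were called higher and 798 lower. The adjustment is stricter where fewer genes change, so these shares need not hold for the data. Gene positions and promoters are from RefSeq for GRCm38.p6. The members and lists were chosen with earlier results of these data known. Given with each sample's value were members called in any comparison, Ern1, Eif2ak3, Atf6, Xbp1, Atf4, Ddit3 and Hspa5, and named from each further list were its called genes, at most 3 in each direction. Creb3l2, Sel1l, Pdia4 and the other genes of a count were named after their values were seen. The counts of calls, the medians and the differences of these genes were computed again without the filter, with a filter at a mean of 50, without the third group or the trend, with array weights, after quantile normalization or median centring, with the replicate number, Xist, anterior lobe markers or posterior lobe markers in the fit, and without each sample. Counts of genes whose groups do not overlap were repeated only after the scalings and without each sample, and the counts of genotype order and the medians by motif were not repeated. Endothelial, fibroblast, macrophage, melanotroph and stem cell covariates were added after the data had been seen. Figures were drawn with matplotlib 3.10.9 under Python 3.11.15.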

Additional observations from a re-analysis of the deposited data

Results flagged for a closer look

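The 4 WT values of 50 measures were checked for 1 value standing apart. There were 2, and chance gives about 2.5. Hspa5 in WT replicate 4 was at 13.46 against 13.72 to 13.78 in the other WT samples, a gap of 0.831 of the WT range. Sox2 in WT replicate 3 was at 7.75 against 7.34 to 7.39, a gap of 0.885 of the range. Groups of 3 samples were not checked in this way. Without WT replicate 4 the difference of Hspa5 between p27-/- and WT was 0.18.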

How the results depend on the processing

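The number of the 38 genes called in p27-/- against WT was 3, and 1 with no filter on low values, 5 with array weights, 4 with median centring, 2 with only the 2 groups, without the trend, with quantile normalization or with the macrophage and microglia markers, and 0 with the posterior lobe, endothelial, fibroblast and mural, melanotroph or stem cell markers as a covariate. It was 3 with a mean of at least 50, with Xist and with the anterior lobe markers. It ranged from 0 to 7 with a sample left out. Over all genes the calls in this comparison were 545 higher and 798 lower, and they changed as well. They were 319 and 512 with no filter, 734 and 1030 with array weights and 626 and 694 with median centring. With only the 2 groups they were 305 and 502, without the trend 496 and 792 and with quantile normalization 489 and 665. The macrophage and microglia markers gave 322 and 576 and the stem cell markers 5 and 4. With a sample left out they ran from 145 and 258 to 725 and 984. With array weights 1 gene was called in the compound mutant against WT (Sel1l) and 1 between the mutants (Pdia4), and with a sample left out these counts stayed at 0. Array weights also raised the calls over all genes. They went from 143 higher and 325 lower to 412 and 828 against WT, and from 14 and 11 to 147 and 136 between the mutants. Of the 127 further ER genes, 2 were called in p27-/-, and 1 with no filter, with only the 2 groups or with the macrophage and microglia markers, 5 with the anterior lobe markers and 0 with the posterior lobe, endothelial, fibroblast and mural, melanotroph or stem cell markers, ranging from 0 to 9 with a sample left out. In the compound mutant 1 was called, and 2 with array weights and 0 with only the 2 groups, with quantile normalization or with the anterior lobe, posterior lobe, endothelial, fibroblast and mural, macrophage and microglia or stem cell markers, ranging from 0 to 1. Over all genes, 75 were called higher and 185 lower with only the 2 groups and 146 and 272 with quantile normalization. The anterior lobe markers gave 166 and 287, the posterior lobe 24 and 40 and the endothelial 56 and 201. The fibroblast and mural markers gave 14 and 42, the macrophage and microglia 33 and 111 and the stem cell markers 1 and 1. Between the mutants 1 was called with array weights. The cause of these changes was not tested.

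The correlations of same-numbered samples ranged from -0.238 to 0.182. None was computed between differently numbered samples, so these values do not show whether the replicate numbers pair the samples. With the replicate number as a block, 0 of the 38 and 1 of the 127 genes were called in p27-/- and 0 of the 127 in the compound mutant. Over all genes the block left 202 called higher and 393 lower in p27-/- and 62 and 147 in the compound mutant. The block removes WT replicate 4, which has no partner, from the comparisons.

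The spread between samples was taken as the SD within genotypes of the mean of the 38 genes, which was 0.08. The median of the 38 genes moved by less than this under every alternative run in p27-/- against WT (0.06 to 0.15) and between the mutants (-0.20 to -0.13). The limit is wide beside the median of 0.12 in p27-/-, so a move within it can be a large part of that difference. In the compound mutant against WT it was -0.0905 with the stem cell markers. Differences near 0 changed sign. For Ern1 in p27-/- (0.01) the value was -0.0088 with array weights, -0.0192 with quantile normalization, -0.0112 with Xist, -0.0877 with the posterior lobe, -0.044 with the fibroblast and mural, -0.0909 with the melanotroph and -0.149 with the stem cell markers, and -0.117 to 0.0974 with a sample left out. For Atf6 in p27-/- it was -0.0040 with quantile normalization, -0.0012 with the block and -0.0204 with the posterior lobe and -0.0281 with the stem cell markers, and -0.0012 to 0.101 with a sample left out. In the compound mutant against WT, Atf6 gave -0.0107 with the block, -0.0385 with the posterior lobe and -0.030 with the stem cell markers and -0.0107 to 0.0912 with a sample left out, Eif2ak3 gave -0.0344 with the block, -0.031 with the stem cell markers and -0.0344 to 0.0752 with a sample left out, Xbp1 gave -0.0062 with the posterior lobe markers and Ssr2 gave -0.134 with the stem cell markers. Hspa5 gave 0.0255 with array weights, 0.0079 with the anterior lobe and 0.0075 with the fibroblast and mural markers, and -0.112 to 0.0591 with a sample left out. Ddit3 gave 0.0508 with the posterior lobe, 0.0545 with the endothelial, 0.0724 with the fibroblast and mural and 0.111 with the macrophage and microglia markers. Pomc gave 0.075 with array weights, 0.0611 with the posterior lobe, 0.0201 with the fibroblast and mural and 0.253 with the macrophage and microglia markers, and -0.186 to 0.148 with a sample left out. Between the mutants Atf6 gave 0.0048 with array weights, 0.021 with quantile normalization, 0.0183 with the anterior lobe markers and -0.0259 to 0.0013 with a sample left out. No other gene recomputed under the alternatives changed sign. The depth of each sample is unknown, and each group holds 3 or 4 samples. In the simulated data, where 200 genes were changed, a log2 change of 0.5 was called in 41.5% of them.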
